A study of Homo sapiens and Homo sapiens
Mus musculus and Mus musculus with 200 samples.

Results

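In human cranial neural crest cells in which TWIST1 was degraded, 3744 of 213151 elements gained the histone mark H3K27ac within 3 h and were still above their starting level at 24 h. The elements are the merged open-chromatin peaks of 6 deposited count tables, and the members were chosen on the TWIST1FV table alone. Counts were divided by the total of their library and given per megaread (CPM), and the mean log2(CPM + 1) of the 2 libraries of a time was compared with that at 0 h. A member had a mean of at least 4 CPM at 24 h and a rise of at least 0.7 on this log2 scale both at 3 h and at 24 h. Of the 39606 peaks that reached 4 CPM at 24 h, called active peaks here with the members included, 9.45% were members. A further 4505 active peaks met the rise at 24 h but not at 3 h, and they are called late elements. Because these TWIST1FV values chose the members, the gain in TWIST1FV is a description and carries no test.

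All neural crest cells came from H9, a human embryonic stem cell line, differentiated in culture, so they stand in for the tissue of an embryo and not for a donor. The TWIST1FV line carries a tag on TWIST1 through which dTAGV-1, given at 500 nM, has the protein degraded. Its H3K27ac libraries came from 1 clone, c64, at 0, 3 and 24 h, with 2 replicates per time. WT is the parental H9 genotype given the same agent for the same times. ALX1FV (clones c17 and c33), PRRX1FV (clones c10 and c14) and MSX1FNV (clone label c93/69 on both replicates) carry a tag on ALX1, PRRX1 or MSX1. ALX1FV ALX4- (clones c22 and c14) carries the ALX1 tag in cells in which ALX4 is also knocked out, at 0 h as well. Each of these 5 lines has the same 3 times and 2 replicates. Binding lists came from TWIST1, AP2a and V5 chromatin immunoprecipitation in these cells, from TWIST1 in RS4;11, a lymphoblast line that was not edited, and from HEK293, an embryonic kidney line transfected with TWIST1 plasmids. Of the 40 HEK293 TWIST1 lists, 26 came from altered TWIST1. The labels name loop or inserted sequences of NEUROD1, NEUROG2, TAL1 or HAND2, and the substitutions L138F and L138Y. Many HEK293 libraries also received a plasmid of ALX4, PRRX1a, PRRX1b, MSX1 or PHOX2A. No label says that replicates were separate differentiations, so p-values measure the spread between these libraries. In ALX1FV, ALX1FV ALX4- and PRRX1FV that spread is also between clones, and the main fits did not block by clone. In the other lines it may be technical.

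TWIST1 is a basic helix-loop-helix transcription factor of the cranial neural crest and the mesenchyme it forms, and it binds E-box sequences together with E-protein partners. H3K27ac, acetylation of lysine on histone H3, marks active promoters and enhancers. AP2a, encoded by TFAP2A, is a transcription factor that neural crest cells need early, and ALX1, ALX4, PRRX1 and MSX1 are homeodomain factors of the facial mesenchyme.

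The sequences of 8 members are shown because they hold elements with the largest rises among those of the most common width, a pair of AP2a-bound elements and the ID3 element that differed between lines. Each is the centre of its element on the plus strand of hg38, 5′ to 3′, in lower case. Capitals mark matches on either strand to 8 words. They are the E-box CAGATG, the palindromic E-box CATATG, a further E-box spelled CAGCTG, the E-box of SNAI and ZEB factors spelled CACCTG, the AP-1 word TGANTCA, the word CTTTGAA of TCF and LEF factors, the nuclear receptor word AGGTCA, and an AP2 word made of GCC, any 3 bases, and then its reverse complement. The ID3 element was added after its values were seen.
HDDC2 element, chr6:125356982-125357182: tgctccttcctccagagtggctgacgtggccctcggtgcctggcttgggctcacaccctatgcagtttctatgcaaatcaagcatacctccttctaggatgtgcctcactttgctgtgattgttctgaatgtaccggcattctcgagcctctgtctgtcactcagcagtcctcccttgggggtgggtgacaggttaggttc
PARD3B element, chr2:205509699-205509899: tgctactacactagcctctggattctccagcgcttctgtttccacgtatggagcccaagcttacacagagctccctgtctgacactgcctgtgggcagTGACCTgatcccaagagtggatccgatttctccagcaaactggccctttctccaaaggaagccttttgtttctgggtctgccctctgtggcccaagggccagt
CD247 element, chr1:167489381-167489581: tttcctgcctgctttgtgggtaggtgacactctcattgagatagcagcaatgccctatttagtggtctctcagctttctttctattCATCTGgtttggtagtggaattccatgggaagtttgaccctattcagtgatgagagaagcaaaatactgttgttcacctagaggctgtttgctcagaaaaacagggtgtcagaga
CD247 element, chr1:167488854-167489054: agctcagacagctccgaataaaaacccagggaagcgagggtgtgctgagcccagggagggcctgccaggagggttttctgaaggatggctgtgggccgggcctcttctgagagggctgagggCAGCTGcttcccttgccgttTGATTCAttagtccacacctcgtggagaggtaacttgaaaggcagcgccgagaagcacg
SFTA2 element, chr6:30957838-30958038: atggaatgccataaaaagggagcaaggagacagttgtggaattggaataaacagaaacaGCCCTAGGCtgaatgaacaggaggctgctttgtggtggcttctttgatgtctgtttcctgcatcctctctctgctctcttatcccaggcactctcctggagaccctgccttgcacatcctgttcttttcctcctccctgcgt
IGF2BP2 element, chr3:185847738-185847938: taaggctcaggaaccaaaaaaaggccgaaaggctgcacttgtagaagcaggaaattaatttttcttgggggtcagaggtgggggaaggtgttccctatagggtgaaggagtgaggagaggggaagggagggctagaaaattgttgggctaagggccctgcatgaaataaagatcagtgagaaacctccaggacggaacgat
LYZL2 element, chr10:30612157-30612357: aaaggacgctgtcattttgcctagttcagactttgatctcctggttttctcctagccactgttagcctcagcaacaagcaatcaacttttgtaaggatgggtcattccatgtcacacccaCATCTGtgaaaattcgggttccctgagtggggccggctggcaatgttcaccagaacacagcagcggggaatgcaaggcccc
ID3 element, chr1:23556189-23556389: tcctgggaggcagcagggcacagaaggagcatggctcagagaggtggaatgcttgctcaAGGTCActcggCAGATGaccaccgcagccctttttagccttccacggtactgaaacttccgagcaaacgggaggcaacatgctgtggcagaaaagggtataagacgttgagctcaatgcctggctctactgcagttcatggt
The window of the HDDC2 element, the member with the largest rise, held none of these 8 words, and neither did the IGF2BP2 window, although that element lay in the TWIST1 reference set and in both AP2a lists. The ID3 window held AGGTCA and CAGATG close together.

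The 36 H3K27ac libraries held 5137169 to 9173063 counts, and the 6 TWIST1FV libraries 7163998 to 8817125. Counts were mostly even numbers (76.7% or more of those that reached 20), so both mates of a read pair may have been counted. At the start sites of 10 neural crest genes, among them ALX1, ALX4, TFAP2A and SNAI2, all 10 had at least 4 CPM in TWIST1FV at 0 h and at 24 h. The summed level at the strongest peak of each gene was 853 CPM at 0 h and 911 CPM at 24 h, with TWIST1 at 35.2 and 70.3 CPM, SNAI2 at 80.5 and 54.0 CPM, PDGFRA at 38.9 and 27.2 CPM and MSX1 at 36.1 and 23.6 CPM. Markers of other cell types were low: 3.61 and 5.96 CPM summed over 5 neuronal genes, 1.38 and 2.12 CPM over 4 melanocyte genes, 9.80 and 21.8 CPM over 5 epithelial genes, and 5.39 and 3.80 CPM over 4 smooth muscle genes. No peak lay at the starts of POU5F1 and NANOG, and LIN28A was at 122 and 174 CPM. The epithelial sum was therefore higher at 24 h, mainly at EPCAM (6.23 and 13.4 CPM). Of the glial genes, SOX10 was at 0.897 and 3.73 CPM. The part of these markers in the results was not tested, and in bulk chromatin a few cells with a mark cannot be told apart from a weak mark in all cells.

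The gaining elements were weak at the start. In TWIST1FV their median was 3.09 CPM at 0 h (range 0 to 89.6), 7.33 CPM at 3 h (1.35 to 162) and 9.58 CPM at 24 h (4.00 to 202). A level under 4 CPM at 0 h was found in 2283 members (61.0%). The median rise was 0.95 at 3 h and 1.27 at 24 h, in log2 units of CPM + 1, a scale that understates the change of weak elements. In 3564 of the 3744 members all 4 libraries of 3 and 24 h lay above both libraries of 0 h. After 3 h, 2903 members stood higher at 24 h than at 3 h and 841 lower, 768 of them by at least 0.7 upward and 3 by as much downward. Both 0 h libraries had no count at 2 members and at most 3 counts at 6.

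**Figure D1:**
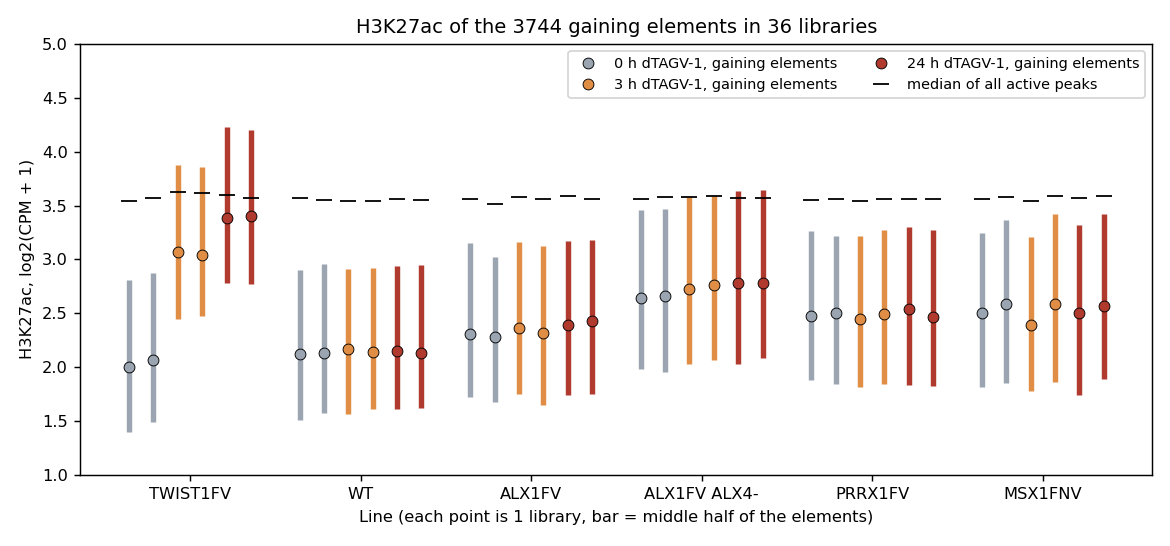
H3K27ac of the gaining elements in each of 36 libraries: points are medians of log2(CPM + 1), bars the interquartile range, and dashes the median of all active peaks in the same library. The members' median in TWIST1FV goes from 2.00 and 2.06 at 0 h to 3.38 and 3.40 at 24 h, while the 3 times of WT lie between 2.12 and 2.17.

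The members with the largest rise at both times lay away from promoters. An intergenic element at chr6:125356832-125357332 (hg38), 55004 bp upstream of a start of HDDC2, was at 0.82 and 2.27 CPM at 0 h, 12.3 and 16.6 CPM at 3 h and 72.6 and 57.5 CPM at 24 h. All its TWIST1FV libraries after dTAGV-1 were above those before, and its 6 WT libraries stayed between 1.30 and 2.08 CPM. An intergenic element at chr18:27712200-27713449, whose nearest protein-coding gene is CDH2, the N-cadherin gene, 253011 bp away, was at 7.93 and 7.26 CPM, then 40.5 and 60.6 CPM, then 116 and 139 CPM. In WT that element lay between 7.98 and 13.1 CPM.

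Introns held several of the others. The element at chr2:205509549-205510049 in PARD3B, a cell polarity gene, was at 1.91 and 2.50 CPM at 0 h, 14.5 and 16.2 CPM at 3 h and 35.8 and 40.7 CPM at 24 h. The element at chr14:34180491-34181750, 11354 bp from a start of EGLN3, an oxygen-sensing prolyl hydroxylase, was at 3.56 and 5.90 CPM, then 19.0 and 40.4 CPM, then 33.9 and 50.8 CPM. Its replicates at 3 h differed by more than the means of 3 and 24 h did. A pair of elements in CD247, the T-cell receptor zeta chain, reached most of their level by 3 h: the one at chr1:167489231-167489731 was at 4.10 and 4.88 CPM at 0 h, 25.5 and 25.9 CPM at 3 h and 29.7 and 35.2 CPM at 24 h, and its neighbour at chr1:167488704-167489204 at 1.37 and 2.04 CPM, then 11.4 and 11.5 CPM, then 17.0 and 14.0 CPM. The element at chr5:135507966-135508963, in an intron of SLC25A48 and 27500 bp from the start of NEUROG1, a neurogenic helix-loop-helix gene, showed no further gain after 3 h, with 4.92 and 2.50 CPM at 0 h, 24.0 and 15.5 CPM at 3 h and 24.9 and 15.5 CPM at 24 h. The element at chr6:30957688-30958188, 2302 bp upstream of SFTA2, was at 0.82 and 0.454 CPM, then 5.16 and 8.29 CPM, then 13.9 and 15.9 CPM. None of these elements lay in the TWIST1 reference set, which is the WT 0 h TWIST1 peaks found in both replicates, while the SFTA2 and NEUROG1 elements were overlapped by at least 1 TWIST1 list of the neural crest cells.

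The strongest members at 24 h were already strong at 0 h. The BCAR3 intronic element at chr1:93721920-93723561 was at 63.2 and 77.7 CPM at 0 h, 119 and 162 CPM at 3 h and 198 and 205 CPM at 24 h. The intergenic element at chr1:117801722-117803337, nearest to GDAP2 among protein-coding genes, was at 73.2 and 72.7 CPM, then 124 and 118 CPM, then 198 and 185 CPM. Both lay in the reference set, and neither was overlapped by both AP2a lists. The others among the top 5 were the promoter of AAAS, an element 12099 bp from IER2 and the promoter of VEZF1, at 189, 149 and 144 CPM at 24 h.

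edgeR's quasi-likelihood test on the same TWIST1FV counts called 980 members (26.2%) higher at 3 h at a false discovery rate (FDR) of 0.05, where 1.01% of all 123361 tested peaks were called higher, and 2510 (67.0%) at 24 h, where 4.28% were. Both times were called at 889 members. Nothing is read from these shares, since the rule used the same contrasts. Compared replicate by replicate, the members' median log2 difference exceeded that of the other active peaks by 0.893 and 0.805 at 3 h and by 1.12 and 1.06 at 24 h. The rule chose the members on these same libraries, so nothing is read from this excess either.

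In the 5 other lines few or no members were called after dTAGV-1. Neither in WT (0% of 120860 tested peaks at 3 h and 0% at 24 h) nor in ALX1FV (0% of 110426 at both times) was any member called by edgeR at an FDR of 0.05, and DESeq2 called none there either. At an unadjusted p under 0.05 in either direction, WT had 141 members (3.86%, against 3.42% of all tested peaks) at 3 h and 127 (3.48%, against 3.58%) at 24 h. ALX1FV had 50 (1.39%, against 1.61%) and 63 (1.75%, against 1.84%). With both directions pooled, these shares are near those of all peaks. In ALX1FV at 24 h, 1.25% of members were higher and 0.50% lower, against 0.60% and 0.50% of the other active peaks. There a fold change above 0 was found in 56.9% of members at 3 h and 61.2% at 24 h. The other active peaks had 52.5% at both times. The median log2 fold change of the members was 0.02 in WT at each time and 0.06 and 0.11 in ALX1FV, where the other active peaks had 0.01 and 0.01. With 1 library left out, the ALX1FV median at 24 h was 0.05 to 0.14. The medians per library lay between 2.12 and 2.17 in WT. In ALX1FV they were 2.30 and 2.28 at 0 h and 2.39 and 2.43 at 24 h.

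In PRRX1FV and MSX1FNV no member was called either. In PRRX1FV 0 members were called by edgeR at 3 h (0% of all tested peaks) and 0 at 24 h (0.000827%), and in MSX1FNV 0 at 3 h (0.00179%) and 0 at 24 h (0.00448%). DESeq2 called none in these 4 contrasts. Unadjusted p-values under 0.05 were found for 154 members of PRRX1FV at 3 h (4.25%, against 3.91% of all tested peaks) and 157 at 24 h (4.33%, against 4.23%). In MSX1FNV they were found for 92 members (2.56%, against 2.85%) and 137 (3.81%, against 3.57%). The members' median log2 fold change was -0.01 and 0.04 in PRRX1FV and -0.03 and 0.04 in MSX1FNV. Leaving out 1 library moved the MSX1FNV median between -0.14 (without its second 3 h library) and 0.08 (without its second 0 h library) at 3 h, and between -0.06 (without its second 24 h library) and 0.16 (without its second 0 h library) at 24 h, so its sign is not settled. In WT the same step gave 0.01 to 0.05 at 3 h and -0.01 (without its first 0 h library) to 0.06 at 24 h.

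In ALX1FV ALX4-, where ALX1 was degraded in cells without ALX4, the balance of the members leaned upward. edgeR called 0 members at 3 h (0% of 122000 tested peaks) and 2 at 24 h (0.0551% of members, against 0.0279% of all tested peaks), both lower, and DESeq2 called 0 and 1. At an unadjusted p under 0.05, 160 members were higher at 3 h (4.41%, against 1.98% of all tested peaks) and 26 lower (0.717%, against 2.6%). At 24 h 305 were higher (8.41%, against 2.64%) and 42 lower (1.16%, against 3.7%). The median log2 fold change was 0.10 at 3 h and 0.14 at 24 h, against -0.01 and -0.02 in the other active peaks (0.08 to 0.13 and 0.13 to 0.18 with 1 library left out), and 62.7% and 65.3% of the members had a fold change above 0. Per replicate, the members' median exceeded that of the other active peaks by 0.101 and 0.0853 at 3 h and by 0.163 and 0.109 at 24 h. The lean was not particular to the members at 24 h. In log2(CPM + 1), late elements had library medians of 2.47 and 2.48 at 0 h and 2.59 and 2.59 at 24 h. Members had 2.64 and 2.66, then 2.78 and 2.79. With the replicate number, which here names the clone, as a block, 10 members passed at 24 h, 8 of them higher. The share of all tested peaks that passed with the block is not given, so nothing is read from this count. Whether the response differed between lines was not tested.

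**Figure D2:**
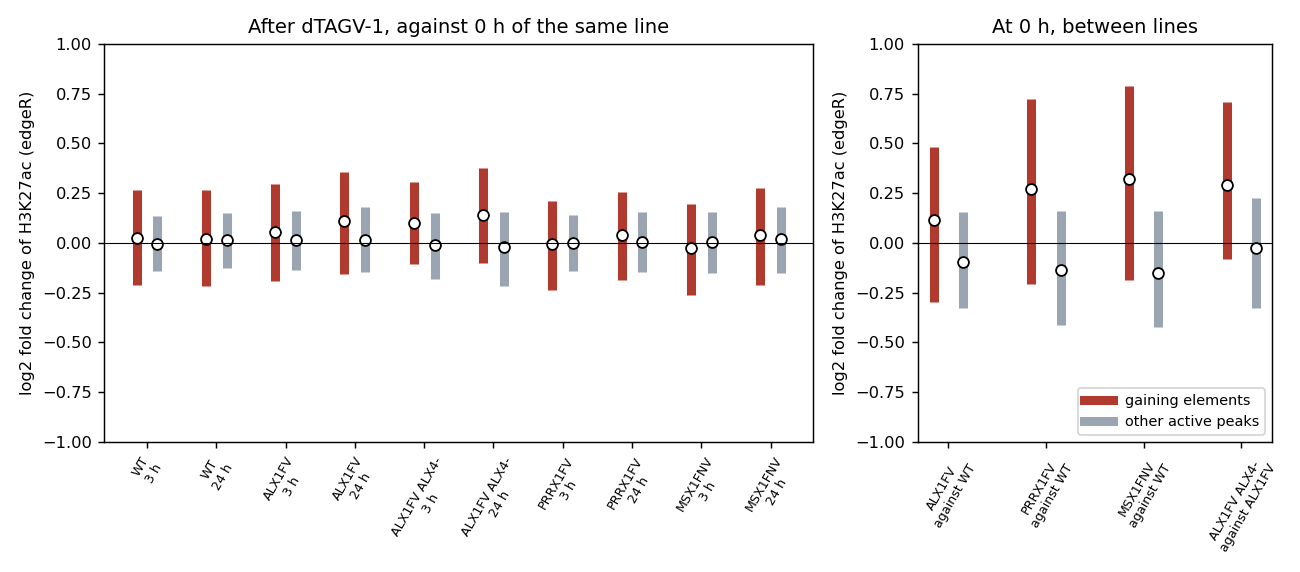
Log2 fold change of H3K27ac in 5 lines, with the median (open circle) and interquartile range (bar) of the gaining elements in red and of the other active peaks in grey. On the left each time is compared with 0 h of the same line, and on the right lines are compared at 0 h. Red medians after dTAGV-1 lie between -0.03 and 0.14, and those at 0 h between 0.12 and 0.32.

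The 2 members that fell in ALX1FV ALX4- went against the direction seen in TWIST1FV. An intergenic element at chr1:196141761-196142977, 77134 bp from a start of LINC01724, a long noncoding RNA gene, was at 12.8 and 16.1 CPM at 0 h, 8.40 and 7.45 CPM at 3 h and 3.49 and 5.60 CPM at 24 h in that line. It fell by 1.68 ± 0.29 (log2 fold change ± SE, edgeR FDR = 0.0164). In TWIST1FV it was at 39.9 and 30.6 CPM at 0 h and at 98.3 and 112 CPM at 24 h. Its level at 0 h was 56.2 and 58.3 CPM in WT and 42.4 and 55.2 CPM in ALX1FV, so it was lower in ALX1FV ALX4- before any dTAGV-1 (by 1.83 ± 0.18 against ALX1FV, FDR = 3.74e-08). The other was an intronic element of ADAMTSL1, an extracellular matrix gene, at chr9:17949143-17950216, with 12.3 and 19.4 CPM at 0 h, 11.2 and 7.73 CPM at 3 h and 6.97 and 3.24 CPM at 24 h. It fell by 1.63 ± 0.31 (FDR = 0.0389), and in TWIST1FV it was at 14.9 and 17.7 CPM at 0 h and 93.0 and 91.0 CPM at 24 h. Both elements were in the TWIST1 reference set and in both TWIST1FV lists of 0 h. Without either 24 h library of ALX1FV ALX4- no member was called, and without its first 0 h library 9 were, 7 of them higher.

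Before any dTAGV-1, the members stood higher in 4 edited lines than in their comparison line, and so did the late elements. In log2(CPM + 1), late elements had library medians of 2.00 and 2.13 in WT and 2.41 and 2.47 in MSX1FNV. They had 2.30 and 2.15 in ALX1FV and 2.47 and 2.48 in ALX1FV ALX4-. Both of their PRRX1FV medians lay above those of WT. The higher level was thus not particular to the members, and whether its size differed from that of late elements was not tested. The 10 libraries of 0 h of the 5 lines were fitted together without TWIST1FV, and 3717 members were tested among 140979 peaks. In PRRX1FV 225 members were higher than in WT (6.05%, against 1.13% of all tested peaks) and 89 lower (2.39%, against 2.28%). In MSX1FNV 310 were higher than in WT (8.34%, against 1.34%) and 91 lower (2.45%, against 2.15%). In ALX1FV the counts were small, with 34 higher (0.915%, against 0.341%) and 16 lower (0.43%, against 0.237%). ALX1FV ALX4- had 187 higher than ALX1FV (5.03%, against 0.976%) and 37 lower (0.995%, against 2.9%). With library size alone the split was 335 higher and 67 lower in PRRX1FV and 52 and 10 in ALX1FV, and that scaling moved the median of all peaks by 0.13 in PRRX1FV and in MSX1FNV.

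The members' median log2 difference was 0.12 in ALX1FV, 0.27 in PRRX1FV and 0.32 in MSX1FNV against WT, where the other active peaks had -0.10, -0.14 and -0.15, and it was 0.29 in ALX1FV ALX4- against ALX1FV, where they had -0.03. The comparisons of ALX1FV, PRRX1FV and MSX1FNV share the WT libraries, so they are not independent of each other. Left without 1 library, the counts ran from 42 (without the second MSX1FNV library, 26 of them higher) to 338 in MSX1FNV, from 89 to 136 in PRRX1FV, and from 5 (without the first WT library) to 143 (without the first ALX1FV library) in ALX1FV. In ALX1FV ALX4- they ran from 63 to 279, with 63 without its own first library and 122 without its second. Shares of all tested peaks called in these fits are not given, so the counts show only how far the calls move. The member medians kept their sign throughout, with 0.15 as the lowest in MSX1FNV. Per the labels, mouse chromatin was added to the TWIST1FV and WT libraries and not to those of the other lines, so in the 3 comparisons with WT line, clone, culture and the added chromatin cannot be told apart. ALX1FV and ALX1FV ALX4- both lacked it, and there line, clone and culture cannot be told apart. Members outside every TWIST1 list had larger medians than members in a list, 0.36 against 0.15 in PRRX1FV, 0.39 against 0.23 in MSX1FNV and 0.16 against 0.05 in ALX1FV. The other active peaks also had larger medians outside the lists, with 0.02 against -0.18, -0.02 against -0.19 and -0.02 against -0.11.

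A few elements were higher at 0 h than in WT in some edited lines other than TWIST1FV. The ID3 element at chr1:23556039-23556539, 2786 bp downstream of the start of ID3, an inhibitor of helix-loop-helix factors, was at 3.47 and 5.93 CPM in WT at 0 h. It was at 23.3 and 21.6 CPM in ALX1FV, 34.5 and 39.8 CPM in ALX1FV ALX4-, 24.4 and 26.8 CPM in PRRX1FV and 19.4 and 34.2 CPM in MSX1FNV, so that no library of these lines overlapped WT. It was higher than in WT by 2.2 ± 0.28 in ALX1FV (edgeR FDR = 5.73e-05), by 2.34 ± 0.27 in PRRX1FV (FDR = 2.67e-06) and by 2.42 ± 0.27 in MSX1FNV (FDR = 2.13e-06). In TWIST1FV it was at 3.01 and 8.62 CPM at 0 h, 9.49 and 17.9 CPM at 3 h and 23.6 and 31.6 CPM at 24 h, a final level within the range of the other edited lines.

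An intronic element of ATP1A4, a sodium pump subunit, at chr1:160168938-160169936, was at 0.693 and 1.69 CPM in WT at 0 h and at 14.0 and 27.9 CPM in MSX1FNV (4.05 ± 0.43, FDR = 9.28e-07). The intronic element at chr17:32536752-32537252, nearest to MYO1D among protein-coding genes, was at 7.40 and 6.78 CPM in WT, at 33.8 and 30.5 CPM in PRRX1FV and at 30.9 and 35.5 CPM in MSX1FNV. It was higher by 2.05 ± 0.25 (FDR = 5.03e-06) and 2.09 ± 0.25 (FDR = 4.89e-06). The element at chr19:3683530-3684304 near PIP5K1C, a lipid kinase gene, was at 4.16 and 5.51 CPM in WT and at 20.8 and 19.8 CPM in ALX1FV (2.00 ± 0.25, FDR = 5.66e-05). FKBP1C had a promoter member with 0.925 and 0.282 CPM in WT against 7.39 and 7.41 CPM in ALX1FV (FDR = 0.000593).

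Other members were lower than in WT in PRRX1FV or in MSX1FNV. The element at chr3:184604128-184604920, 24776 bp from the start of EPHB3, an ephrin receptor gene, was at 25.2 and 23.4 CPM in WT at 0 h and at 4.56 and 5.32 CPM in PRRX1FV, lower by a log2 difference of -2.42 ± 0.29 (FDR = 3.36e-06). In TWIST1FV this element was at 25.3 and 13 CPM at 0 h and 73.3 and 44.9 CPM at 24 h. The CDH3 promoter element at chr16:68645396-68646814 was at 40.7 and 43.1 CPM in WT and 7.78 and 14.8 CPM in PRRX1FV (-2.01 ± 0.24, FDR = 3.36e-06). The intronic element at chr6:160960008-160960508, nearest to MAP3K4 among protein-coding genes, was at 40.9 and 44.3 CPM in WT and 6.11 and 7.14 CPM in MSX1FNV (-2.80 ± 0.35, FDR = 7.15e-06), while TWIST1FV took it from 25.7 and 18.0 CPM at 0 h to 129 and 139 CPM at 24 h. All of these lay in the reference set.

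Against ALX1FV, 3 of the 5 members with the smallest FDR in ALX1FV ALX4- were higher. BMPER, which encodes a secreted regulator of BMP signalling, had an intronic element at chr7:34043801-34045196 at 52.7 and 40.8 CPM in ALX1FV ALX4- and 13.6 and 9.34 CPM in ALX1FV at 0 h (1.97 ± 0.28, FDR = 1.83e-05). The element nearest to DACH1 among protein-coding genes, at chr13:71374229-71375093, was at 22.6 and 22 CPM against 5.25 and 3.84 CPM (2.23 ± 0.32, FDR = 2.29e-05). The element nearest to ATP2B1, at chr12:90064691-90065191, was at 36.8 and 36.6 CPM against 8.54 and 6.32 CPM (2.25 ± 0.26, FDR = 8.79e-07). The element nearest to ZIM2, at chr19:56885312-56886165, was at 0.985 CPM in the first ALX1FV clone and at 25.5 CPM in the second, so its call (FDR = 4.45e-05) rests on 1 clone.

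**Figure D3:**
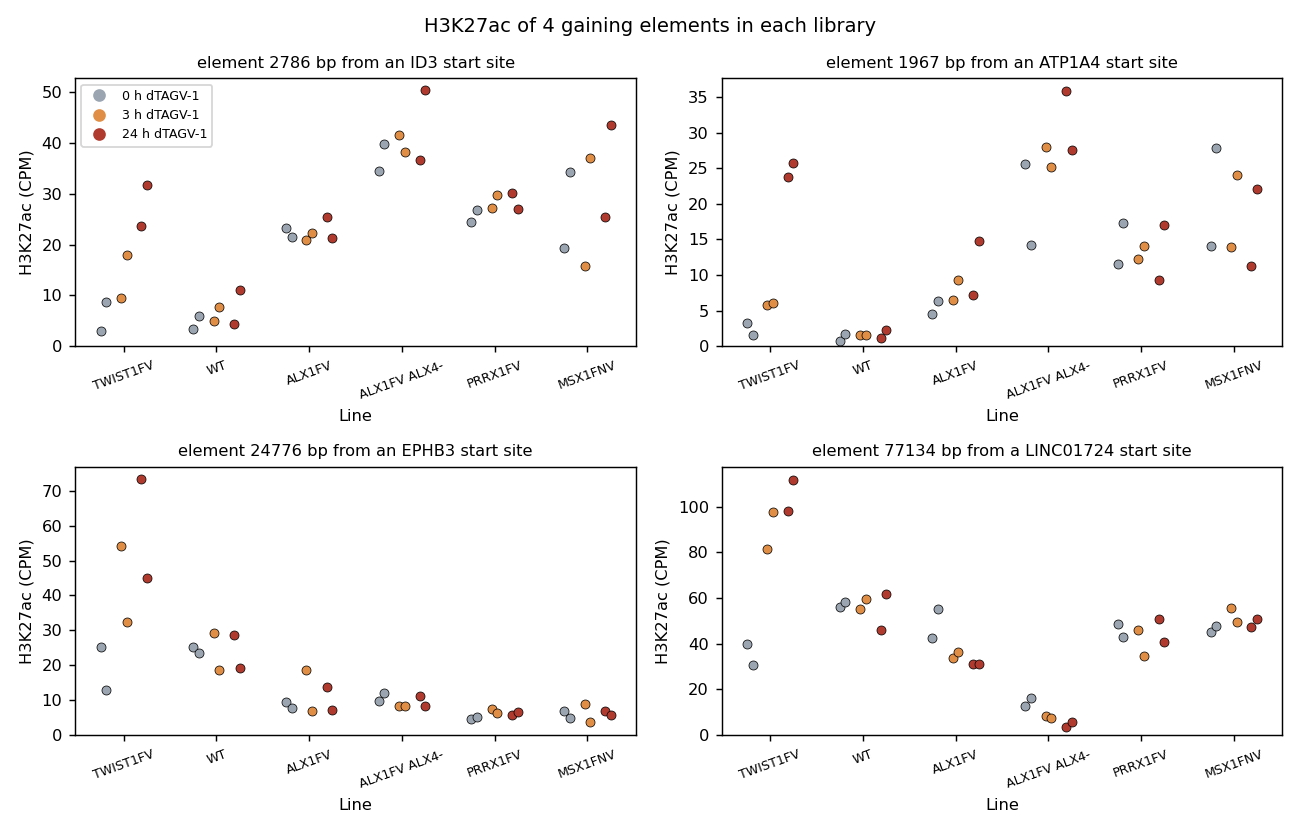
H3K27ac in CPM of 4 gaining elements in every library, by line on the x axis and coloured by hours of dTAGV-1. The ID3 element at 0 h lies at 3.47 and 5.93 CPM in WT and at 19.4 CPM or more in the 4 edited lines other than TWIST1FV. The LINC01724 element lies at 16.1 CPM or less in all libraries of ALX1FV ALX4-.

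TWIST1 occupied fewer of the gaining elements than of active peaks at large. An element counted as occupied when a peak of a list overlapped it by at least 1 bp, and shares carry Wilson 95% intervals that cover counting error only. The TWIST1 reference set overlapped 548 members (14.6%, interval 13.5 to 15.8%), 42.8% of all active peaks and 18.7% of the late elements. It overlapped 19.8% of all peaks of the tables. Single WT lists gave 22.5% and 19.4% at 0 h and 20.1% and 22.1% at 3 h, where active peaks had 51.6%, 47.8%, 49.4% and 52.9%. The lists of TWIST1FV held 33479 and 25034 peaks at 0 h and 835 and 739 at 3 h, and they overlapped 12.4% and 7.80% of members at 0 h and 0.0801% and 0.160% at 3 h, where active peaks had 37.4% and 30.8%, then 2.05% and 1.88%. Members called by edgeR at both times, a subset drawn from the values the rule used, had 21.0% in the reference set. Calls fell more often on strong members. At 3 h they took 824 of the 2205 members with at least 8 CPM at 24 h, against 980 of all 3744. Peaks of equal level were not compared, so nothing is read from the higher share.

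Over all 11 TWIST1 lists of the neural crest cells, 1771 members (47.3%) were overlapped at least once, against 73.0% of active peaks, and 1973 (52.7%) never were. Late elements were alike, with 46.0% overlapped at least once and 54.0% never. The members outside every list were the weaker ones, with a median of 2.23 CPM at 0 h and 7.30 CPM at 24 h, against 4.89 and 13.8 CPM for those in a list. Their median log2 fold change fitted by edgeR in TWIST1FV was 1.18 at 3 h and 1.56 at 24 h, against 1.02 and 1.24 for those in a list, as a description of the values the rule used. In ALX1FV ALX4-, TWIST1 lists of 0 h overlapped 30.8% and 22.7% of members. The first of these was above both WT lists and the second about equal to the higher of them, with 53.0% and 46.6% for active peaks. V5 lists of the tagged homeodomain factors overlapped at most 30 members (0.801%, against 2.64% of active peaks, in the first ALX1FV library) and were short, with 1389 peaks or fewer.

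AP2a was found at a smaller share of members than of active peaks, and at a larger share than of late elements or of all peaks of the tables. The list made with the Novus antibody overlapped 748 members (20.0%, interval 18.7 to 21.3%) and that made with the Cell Signaling antibody 854 (22.8%, interval 21.5 to 24.2%), against 40.2% and 43.3% of active peaks and 15.0% and 17.4% of late elements. Of all peaks of the tables, the Novus list overlapped 10.8% and the Cell Signaling list 11.9%. Both lists overlapped 607 members (16.2%). The reference set and both AP2a lists met at 200 members (5.34%, against 18.2% of active peaks), and 150 members (4.01%, against 5.23%) had both AP2a lists and no TWIST1 list. At 1685 members (45.0%, against 19.2% of active peaks and 48.9% of late elements) there was neither.

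Elements with TWIST1 and AP2a included the MCF2L intronic element at chr13:113022281-113023567, which was at 15.9 and 18.0 CPM at 0 h, 53.0 and 55.7 CPM at 3 h and 115 and 92.7 CPM at 24 h in TWIST1FV. HUNK, a protein kinase gene, held another in an intron at chr21:31909061-31910550, with 15.7 and 22.9 CPM, then 32.4 and 52.7 CPM, then 99.6 and 114 CPM. The intergenic element nearest to UACA, at chr15:70433028-70434749, had replicates far apart at 24 h, at 33.1 and 10.6 CPM. Members with AP2a and no TWIST1 list included elements 6178 bp from FOXD2, a forkhead gene, with mean levels of 7.55, 21.2 and 43.1 CPM at 0, 3 and 24 h, in an intron of CELSR2, with 10.4, 32.8 and 51.0 CPM, and at the SFTA2 promoter, with 4.34, 11.4 and 32.9 CPM. The intronic LYZL2 element, shown above with its sequence, had 1.73, 5.17 and 17.4 CPM.

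Outside the neural crest, TWIST1 lists also overlapped a smaller share of members than of active peaks. In RS4;11 the share of members was above that of late elements, unlike in the reference set. The RS4;11 list overlapped 929 members (24.8%, interval 23.5 to 26.2%), 43.9% of active peaks, 17.0% of late elements and 18.0% of all peaks of the tables. No TWIST1 list of the neural crest overlapped 382 of these members (10.2% of all members, against 9.94% of active peaks). Of the 40 TWIST1 lists of HEK293, all 40 overlapped a smaller share of members than of active peaks. Members ran from 0.694% to 20.2% (median 10.4%) and active peaks from 2.24% to 43.1% (median 27.6%), and in 30 of the 40 the share was higher than that of the late elements. Against all peaks of the tables the order varied, with pCAG-TWIST1 at 16.5% of members and 14.2% of all peaks. With pCAG-TWIST1 and ALX4 the shares were 12.1% and 14.1%. With V5-TWIST1(WT) alone the share was 13.8% ± 5.75 (SD, n = 3 libraries) of members and 31.0% ± 9.0 of active peaks, and with ALX4 added 12.5% ± 4.23 and 32.4% ± 8.58. The spread between libraries was larger than the difference that ALX4 made. The V5 list from HEK293 cells given the empty pUC19 plasmid overlapped 0.0801% of members. At least 1 of the 40 HEK293 lists overlapped 1565 members (41.8%, against 66.5% of active peaks and 41.5% of late elements). None of the AP2a, RS4;11, HEK293 and neural crest TWIST1 lists overlapped 1012 members (27%, against 9.01% of active peaks and 29.9% of late elements).

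**Figure D4:**
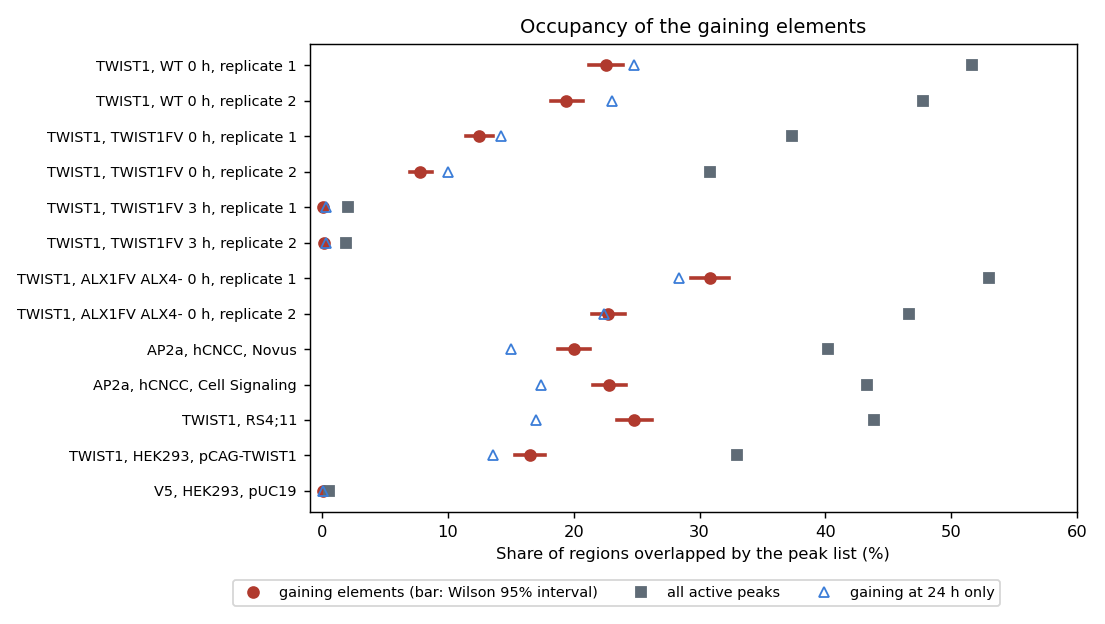
Share of regions overlapped by 13 peak lists, in percent, for the gaining elements (red, with Wilson 95% intervals), all active peaks (grey squares) and the elements gaining at 24 h only (blue triangles). In every list shown the red point lies to the left of the grey square. The red point lies to the right of the blue triangle for AP2a, RS4;11, HEK293 pCAG-TWIST1 and both ALX1FV ALX4- TWIST1 lists. The margin is small in the second ALX1FV ALX4- list (22.7% against 22.4%). In pUC19 the shares are 0.0801% and 0.0666%.

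AP2a, RS4;11 and HEK293 lists overlapped promoters more often than distal peaks, and members were promoters less often than active peaks. At promoters, defined as within 1000 bp of a start site, 34.7% of members and 54.3% of active peaks had both AP2a lists, and 44.8% and 73.2% had the RS4;11 list. At distal elements AP2a stood at 11.8% and 21.6%, RS4;11 at 20.1% and 20.9%, and the reference set at 14.9% and 51.4%. The RS4;11 share of distal members was thus close to that of distal active peaks, while that of the TWIST1 reference set was lower. Active peaks were not matched to the members in their level at 0 h, and a peak list of a single library finds strong sites more readily.

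By position, 714 members (19.1%, against 43.8% of active peaks) were promoters, 153 (4.09%) lay in exons, 1855 (49.5%, against 34.9%) in introns and 1022 (27.3%, against 18.5%) between genes. Of all peaks of the tables, 18.4% were promoters, 3.97% lay in exons, 47.4% in introns and 30.3% between genes. The members' positions were thus near those of all peaks, and the active peaks were the ones rich in promoters. Their median distance to a start site was 7594.5 bp, against 1998 bp for active peaks and 10498 bp for late elements. Another member lay within 5000 bp of 1027 members (27.4%) and within 50000 bp of 1931 (51.6%), which was not compared with other peaks. The nearest start sites belonged to 2658 annotated genes of GENCODE 44, and to 2208 genes when only protein-coding genes were used. Nearness is a position and does not show which gene an element serves.

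By nearest protein-coding gene, HEY2, MPPED2 and GPC5 had 14 members each and ID3 had 13, which for GPC5 was 14 of 51 active peaks and for MPPED2 14 of 26. By any annotated gene the counts were led by Y_RNA, a symbol shared by many loci, with 29 of 189, and CUEDC1, with 11 of 24. HEY2, a Notch-responsive transcriptional repressor, was the nearest protein-coding gene of 14 members among 20 active peaks. They reached from its promoter to 218804 bp upstream, and 9 of the 14 were in a TWIST1 list. The farthest, at chr6:125528235-125529485, was the strongest, with 28.6 and 37.0 CPM at 0 h, 72.0 and 89.4 CPM at 3 h and 124 and 139 CPM at 24 h. At the promoter, the element at chr6:125747521-125748021 was at 1.09 and 1.13 CPM at 0 h, 1.95 and 4.01 CPM at 3 h and 6.60 and 8.24 CPM at 24 h, and its replicates at 3 h differed from each other by about as much as from 0 h.

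ID3 had 13 members among 19 active peaks, on both sides of its start, while the peaks at the start itself did not meet the rule: the peak at chr1:23559339-23559839 had mean levels of 48.6, 49.0 and 59.1 CPM at 0, 3 and 24 h, and that at chr1:23560261-23560761 57.4, 49.4 and 46.9 CPM. The member 5004 bp downstream had 41.2, 73.8 and 88.8 CPM, and that 41121 bp upstream 4.94, 13.3 and 22.8 CPM. UNC5C, a netrin receptor gene, held 9 members in its body, 1 of them at the promoter, with median levels of 2.82, 7.91 and 21.9 CPM. The element at chr4:95457336-95458166 stood at 3.46, 10.8 and 39.6 CPM. The 8 members nearest to TGM2, a transglutaminase, had medians of 3.1, 11.1 and 9.03 CPM and thus a lower median at 24 h than at 3 h. GLI3, a transcription factor of the hedgehog pathway, had 12 members among 35 active peaks by nearest protein-coding gene, 6 of them in the reference set. SHANK2, a synaptic scaffold gene, had 10 of 11, and NUAK1 10 of 20.

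**Figure D5:**
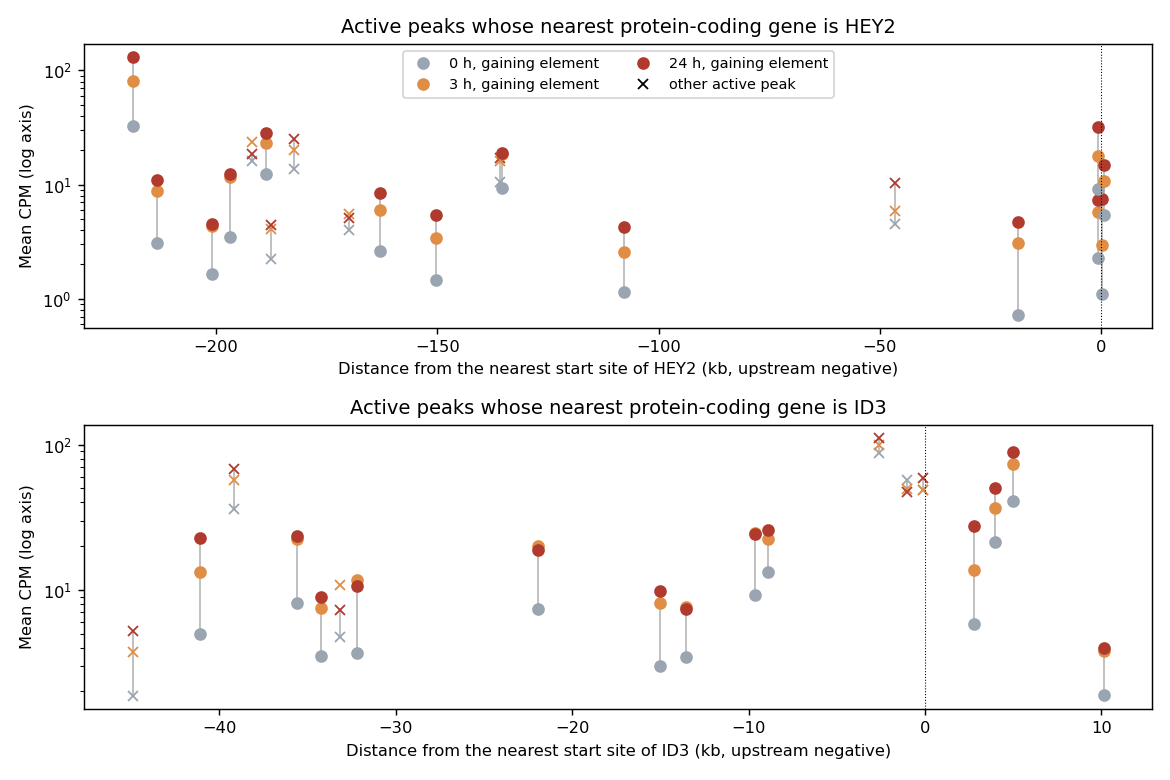
Mean CPM (log axis) of each active peak whose nearest protein-coding gene is HEY2 (top) or ID3 (bottom) against its distance from a start site in kb, at 0 h (grey), 3 h (orange) and 24 h (red). Circles are gaining elements and crosses other active peaks. The HEY2 members run from the promoter to -218.804 kb, and the crosses at the ID3 start lie between 46.9 and 59.1 CPM.

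Gene lists chosen with earlier results in view were described by how many of their active peaks were members, where 9.45% of all active peaks were. By the nearest annotated gene, epithelial genes had 6 of 14 (42.9%), Notch genes 5 of 33 (15.2%) and neuronal and glial genes 6 of 41 (14.6%). TGF-beta and BMP genes had 9 of 93 (9.68%), facial homeobox and HAND genes 6 of 59 (10.2%), neural crest specifiers 6 of 83 (7.23%), cartilage and bone genes 6 of 78 (7.69%) and FGF and MAPK feedback genes 6 of 77 (7.79%). Mesenchyme genes had 3 of 69 (4.35%), WNT genes 3 of 76 (3.95%), AP-1 and immediate early genes 2 of 32 (6.25%), helix-loop-helix partners 3 of 43 (6.98%) and smooth muscle genes 1 of 33 (3.03%). Melanocyte genes had 0 of 2, neural progenitor genes 0 of 12, and HOX genes no active peak. By the nearest protein-coding gene the shares were 7 of 17 (41.2%) for epithelial genes, 15 of 71 (21.1%) for neuronal and glial genes and 18 of 96 (18.8%) for Notch genes. By that choice AP-1 genes had 14 of 93 (15.1%), TGF-beta and BMP genes 25 of 184 (13.6%), cartilage and bone genes 16 of 125 (12.8%), FGF and MAPK genes 32 of 262 (12.2%) and neural crest specifiers 40 of 385 (10.4%). Facial homeobox genes had 8 of 112 (7.14%), mesenchyme genes 13 of 194 (6.70%), WNT genes 9 of 164 (5.49%), helix-loop-helix partners 3 of 57 (5.26%), neural progenitor genes 3 of 52 (5.77%), smooth muscle genes 1 of 39 (2.56%) and melanocyte genes 1 of 10. Thus the lists of AP-1, cartilage and bone, FGF and MAPK, neural crest, facial homeobox and melanocyte genes lay on different sides of 9.45% under the 2 ways of naming a gene. The epithelial share rests on 4 genes of 24.

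Those 4 genes were KRT8, CDH3, CDH1 and RAB25. The CDH3 promoter element at chr16:68644702-68645202, of P-cadherin, was at 10.8 and 10.7 CPM at 0 h, 41.5 and 31.6 CPM at 3 h and 42.9 and 38.5 CPM at 24 h. It had both AP2a lists and the RS4;11 list. The KRT8 intronic element at chr12:52920861-52921811, of a keratin of simple epithelia, was at 3.56 and 4.54 CPM, then 10.1 and 9.09 CPM, then 19.1 and 16.7 CPM. At the promoter of CDH1, the E-cadherin gene that TWIST1 is known to repress, the mean levels were 1.95, 4.4 and 5.70 CPM, and near RAB25 4.81, 8.71 and 10.2 CPM. Of the 5 epithelial markers, EPCAM (13.4 CPM) and CDH1 (5.70 CPM) were above 4 CPM at their start sites at 24 h, and ESRP1, GRHL2 and KRT19 had at most 1.15 CPM.

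Among neuronal genes, a NEUROG1 element at chr5:135534220-135535046 had mean levels of 1.91, 6.12 and 12.9 CPM at 0, 3 and 24 h, a MAP2 intronic element 1.87, 4.78 and 8.51 CPM, and the promoter of DCX, a microtubule protein of young neurons, 1.52, 3.54 and 4.37 CPM. ELAVL3, STMN2 and ISL1 stayed under 1 CPM at their starts at 0 and 24 h. By nearest annotated gene, the neural crest list held an intronic element of PAX7 at chr1:18646489-18647460, which was at 7.11 and 8.85 CPM at 0 h, 19.3 and 22.1 CPM at 3 h and 39.5 and 27.1 CPM at 24 h. PAX3, the paralogue of PAX7, had an intronic element with 4.89, 9.97 and 20.8 CPM, and the NR2F1 promoter had one with 3.23, 6.55 and 9.74 CPM. By nearest protein-coding gene the list also held an element 87649 bp from MYCN with 7.18, 19.3 and 35.6 CPM and one 209982 bp from FOXD3 with 2.41, 4.84 and 33.1 CPM.

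Skeletal and signalling genes had scattered members. The promoter of SP7, an osteoblast transcription factor, was at 21.3 and 33.6 CPM at 0 h, 67.8 and 40.4 CPM at 3 h and 94.8 and 70.9 CPM at 24 h, and it lay in the reference set, both AP2a lists and the RS4;11 list. The MATN3 promoter, of a cartilage matrix protein, had means of 4.50, 9.56 and 14.0 CPM. BMPR1A, a BMP receptor, had an intronic element with 27.1, 60.1 and 71.2 CPM, and BMP2, a ligand, one 88338 bp away with 1.11, 2.85 and 7.05 CPM. ETV4, a target of FGF signalling, had 13.3, 31.7 and 38.0 CPM, FGF18 1.36, 6.27 and 4.02 CPM, and AXIN2, a target of WNT signalling, 3.84, 8.53 and 14.1 CPM. In the Notch list NOTCH1, a receptor, had 1.5, 4.30 and 4.15 CPM and NRARP, a feedback inhibitor, 2.29, 5.14 and 5.37 CPM. JUNB and ATF3, of the AP-1 family, had 2.58, 7.36 and 7.36 CPM and 3.37, 7.35 and 11.1 CPM. The MEIS2 promoter, of a homeodomain gene, had 0.649, 3.25 and 5.72 CPM.

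In their sequence, distal members held 2 of the E-box words less often than distal active peaks, and others about as often. The comparison used elements of the most common width, which are 2337 members and, away from promoters, 1939 members against 12828 active peaks. In all 22 motifs were searched on both strands, and a base may lie in more than 1 of them, and GC content was alike in the distal sets, with medians of 46.9% and 46.7%. CAGATG was found in 33.5% of distal members (Wilson interval 31.5 to 35.7%) and 41.2% of distal active peaks, and CATATG in 5.83% and 9.11%. CAGCTG was in 37.9% and 38.3%, and CACCTG in 28.7% and 27.6%. Distal late elements held CAGATG in 33.3%, close to the members, CATATG in 8.40%, CAGCTG in 32.6% and CACCTG in 21.6%. Among elements in a TWIST1 list CAGCTG was in 48.2% of members and 42.4% of active peaks, and CACCTG in 32.9% and 29.4%. In the central window, of the length printed above, CAGATG was in 16.7% of distal members, 25.2% of distal active peaks and 17.6% of distal late elements. Among elements outside every TWIST1 list the central shares were 11.9% of members and 12.2% of active peaks.

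Other words were more frequent in the members. CTTTGAA, the core of TCF and LEF sites, was in 20.2% of distal members (18.4 to 22%), 15.9% of distal active peaks and 17.6% of distal late elements, and in the central window in 10.8% (9.48 to 12.2%), 7.39% and 8.95%. AGGTCA, a core word of nuclear receptors, was in 44%, 39.9% and 38.4%, and in the centre in 30.4%, 25.2% and 25.1%. Outside TWIST1 lists the central shares of CTTTGAA were 10.1% of members and 7.53% of active peaks, and those of AGGTCA 30.2% and 25.8%. The AP-1 letters were in 17.5% and 15.8% and the AP2 letters in 25.3% and 23.3%. The combined E-box and homeodomain motif, named only, was in 0.0516% of distal members, 0.320% of distal active peaks and 0.0392% of distal late elements. A match is a string of letters and not a bound site, and no test was made of these shares.

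At the edges of the rule, elements inside and outside differ in the rise or level that was cut. Just inside the threshold at 3 h lay the S100A11 promoter, with a rise of 0.700108 and means of 20.6, 34.4 and 42.2 CPM, and just outside an intronic element of PIBF1, with a rise of 0.69988 and 1.70, 3.40 and 5.07 CPM. Just inside the threshold at 24 h lay an element of TSPOAP1-AS1 (0.700018), and just outside an LSAMP element (0.699747). At the floor of 4 CPM the last member was an element at the ACTB promoter with 4.00 CPM at 24 h, and the next peak outside an element near BNIP3 with 3.996 CPM.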

How the data were processed

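Chromatin immunoprecipitation reads were turned into files by the authors, and the deposited files are the start of all values here. The 6 deposited tables hold whole-number counts of H3K27ac reads over 213151 shared peaks in hg38, 36 libraries in all with 5137169 to 9173063 counts each. Per the labels, reads of these libraries were aligned to hg38 and mm39 together. Bowtie2 2.4.1, SAMtools 1.10, MACS2 2.2.7.1 and deepTools 3.5.0 are named per the submitters' processing notes, without a role. The 65 deposited human peak lists give, per peak and library, the authors' fold enrichment, score, -log10 p and -log10 q, and only the -log10 q was used, as a filter. The 5 mouse lists were not used here. Reads of the mouse spike-in were not used, so a shift shared by all peaks would go unseen.

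The tests used edgeR 4.0.16 in R 4.3.3 (quasi-likelihood, TMM, filterByExpr, Benjamini-Hochberg FDR 0.05 over all tested peaks), each line alone, and the 0 h libraries of 5 lines in 1 fit. DESeq2 1.42.0, other scalings, no filter, a replicate block and leaving out single libraries were alternatives. Overlaps used bedtools 2.31.1, and positions GENCODE 44. Named elements were those with the largest rises, in the genes with most members, with the largest rise per gene list, called in another line, bound by AP2a, at the edges of the rule, or strongest. The members, lists and tests were chosen with earlier results of these data known. Replicate numbers pair libraries in ALX1FV, ALX1FV ALX4- and PRRX1FV, where the number names the clone (correlations of deviations 0.25 to 0.26, 0.03 to 0.04 and 0.02). In the other lines they share only a number. Some glial markers of the list are not reported here.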

Additional observations from a re-analysis of the deposited data

How the results depend on the processing

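Of 171 alternatives to 30 results, 127 stayed within the limits set for them, and 66 of the alternatives left out 1 library or replicate. Leaving out 1 library gave 495 to 1026 members called in TWIST1FV at 3 h and 1616 to 2042 at 24 h, 0 to 9 in ALX1FV ALX4- at 24 h, 5 to 143, 89 to 136 and 42 to 338 at 0 h in ALX1FV, PRRX1FV and MSX1FNV against WT, and 63 to 279 in ALX1FV ALX4- against ALX1FV. In the other 9 contrasts of 3 or 24 h with 0 h it gave 0. A lone library was assumed to vary like the other groups. For these fits and those with the replicate block, shares of all tested peaks called are not given. Their counts show only how far the calls move. With the replicate block, 2204 members were called in TWIST1FV at 3 h, 10 in ALX1FV ALX4- at 24 h and 2 in MSX1FNV at 24 h, and the block moved no other count by over 1.5 times. In TWIST1FV the correlations of same-numbered libraries were 0.08 to 0.14. In ALX1FV ALX4- at 24 h, no filter gave 0 and DESeq2 1. A floor of 8 CPM left 2205 members and a rise of 1 left 1336. With TMM effective library sizes in the rule, 2904 of the 3744 members remained. Scaling by library size alone, as in the rule, raised the TWIST1FV median of all tested peaks over TMM by 0.0885 at 3 h. At 24 h it raised that median by 0.125. Replicate 1 alone gave 4833 members, 2811 of them shared, and replicate 2 alone 3980, with 2477 shared. At a -log10 q of at least 5, the shares of members were 9.62% (reference set), 15.0% and 17.9% (AP2a, Novus and Cell Signaling), 22.2% (RS4;11) and 8.33% (HEK293 pCAG-TWIST1). With 50% overlap they were 18.5% and 21.3% for AP2a, 22.2% for RS4;11 and 14.2% for HEK293. Members called at both times, a subset drawn from the values the rule used, had 21.0% in the reference set and 26.2% and 29.6% for AP2a. Promoter windows of 500 and 2500 bp gave 14.0% and 29.0%. In the central window the ratio of distal members to distal active peaks was 0.664 for CAGATG, 0.421 for CATATG, 1.46 for CTTTGAA and 1.21 for AGGTCA. The cause of these changes was not tested.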
